A study of Mus musculus with 13 samples.

Results

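The antioxidant and glutathione enzymes described here are 10 genes of the 23366 in the deposited expression table: Sod1, Sod2, Sod3, Cat, Gpx1, Gclc, Gclm, Nqo1, Hmox1 and Txnrd1. They were taken as the entries whose Entrez identifier belongs to those symbols in the mm10 mouse annotation, and all 10 were found. No filter on low values was applied, so all 10 were tested. RNA-seq measured the pancreas of 13 female mice, 1 library per mouse, after removal of ribosomal RNA from total RNA. Values are log2 RPKM, the log2 of reads scaled to transcript length and to the reads of the library, quantile normalized across the mice by the authors. The methods state a nominal number of reads per sample, but the table holds no counts and no total for any library, so no counting error can be given.

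Every mouse was of the reprogrammable i4F-B strain, which carries a doxycycline-inducible cassette of the 4 reprogramming factors Oct4, Sox2, Klf4 and c-Myc (OSKM) and a ubiquitously expressed transactivator. The cassette lies in the Pparg gene in all groups. The young group held 4 untreated mice of 13 weeks and the old group held 5 untreated mice of 55 weeks. In the old-OSKM group, 4 mice had drunk doxycycline for 1 week and then recovered without it for 2 weeks, which the labels count as an age of 58 weeks. Neither untreated group received doxycycline, so exposure to the drug, the OSKM factors and the extra weeks of age cannot be told apart. In this strain the acinar cells of the pancreas switch the cassette on widely, whereas most endocrine cells do not.

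Superoxide leaks from mitochondria and is made on purpose by membrane oxidases. Superoxide dismutases turn it into hydrogen peroxide. Catalase breaks the peroxide down, while glutathione peroxidases and peroxiredoxins reduce it to water, drawing on glutathione, thioredoxin and NADPH. Many genes of these pathways are targets of the transcription factor Nrf2, which is held low by Keap1 until oxidants or electrophiles release it. The pancreas is of interest because acinar cells form many disulfide bonds as they fold digestive enzymes, a reaction that produces peroxide, while islet beta cells are known for low catalase and glutathione peroxidase.

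Some mice stood apart from the others. Over the 8410 genes with a mean log2 RPKM over 0, the median distance of a gene from its median over all mice was 0.277 log2 units in old-OSKM mouse 4 and 0.0583 to 0.112 in the other 12 mice. In old-OSKM mouse 4, 448 of these genes lay more than 1 log2 unit from the median. The next were old-OSKM mouse 1 with 105 and young mouse 4 with 61, against 3 to 22 in the others. Each comparison of the old-OSKM group is therefore also given without mouse 4 where a result rests on that mouse. Young mouse 3 had a summed RPKM of 77.7 over 7 hepatocyte markers, against 3.34 to 8.91 in the other mice, with Ttr the most abundant of them by mean log2 RPKM over all mice and Alb at 5.36 log2 RPKM in young mouse 3. Old mouse 4 came next at 8.91, with Alb at 1.24 and Fgb at −0.13 log2 RPKM. Liver is rich in catalase and glutathione peroxidase, so Cat and Gpx1 are also given without young mouse 3 and without old mouse 4. The label pancreas was borne out by the acinar markers, 12 genes whose summed RPKM was 12830 to 13546 in every mouse, with Ctrb1 the most abundant. That sum has little room to move, because quantile normalization gave Ctrb1 and Cela2a the same value in every mouse, 11.11 and 11.005 log2 RPKM.

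Levels per unit of transcript length can be compared between genes. Averaged over the 13 mice, Sod1 was the most abundant of the 10 at 3.45 log2 RPKM, or 10.9 RPKM, and 98.4% of all genes were lower. Gpx1 followed at 2.90 log2 RPKM and Cat at 2.18. Txnrd1 at 1.96, Sod2 at 1.88 and Gclm at 1.88 lay close together, with Gclc below them at 1.15. The lowest 3 were Sod3 at 0.16, Hmox1 at −0.14 and Nqo1 at −1.94 log2 RPKM, or 0.261 RPKM, a level below which 41.8% of all genes lay. Most steps in this order were larger than the spread between mice. Sod1 was above Gpx1, Gpx1 above Cat, Gclc above Sod3 and Hmox1 above Nqo1 in 13 of 13 mice, and Cat was above Txnrd1 in 12 of 13. Txnrd1 and Sod2 did not differ beyond their spread, with a mean log2 difference of 0.08 ± 0.12 (SD over the mice) and Txnrd1 higher in 8 of 13. The same was true of Sod2 and Gclm, at 0.00 ± 0.20, and of Sod3 and Hmox1, at 0.30 ± 0.34, although Sod3 was higher in 12 of 13 mice.

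The genes also differed in how much they varied between mice of a group. The residual SD of Sod1 was 0.0667 log2 units, and 16.4% of all genes had a smaller one. Sod2 and Txnrd1 followed, each at 0.116. Nqo1 was at the other end with a residual SD of 0.495, and 86.8% of all genes had a smaller one. Sod3, at 0.305, and Gclc, at 0.280, were the next most variable. The place of Nqo1 leans on old-OSKM mouse 3, at −3.49 log2 RPKM. Its SD was 0.80 in old-OSKM mice, but 0.35 in old and 0.15 in young mice. In young mice Sod3, at 0.30, Cat, at 0.24, Gclc, at 0.23, Hmox1, at 0.22, and Gpx1, at 0.16, had a larger SD than Nqo1. In old mice Sod3 and Gclc had a smaller SD than Nqo1, at 0.21 and 0.34. With the residual SD of all groups, a given fold change was far easier to detect for Sod1 than for Nqo1.

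**Figure D1:**
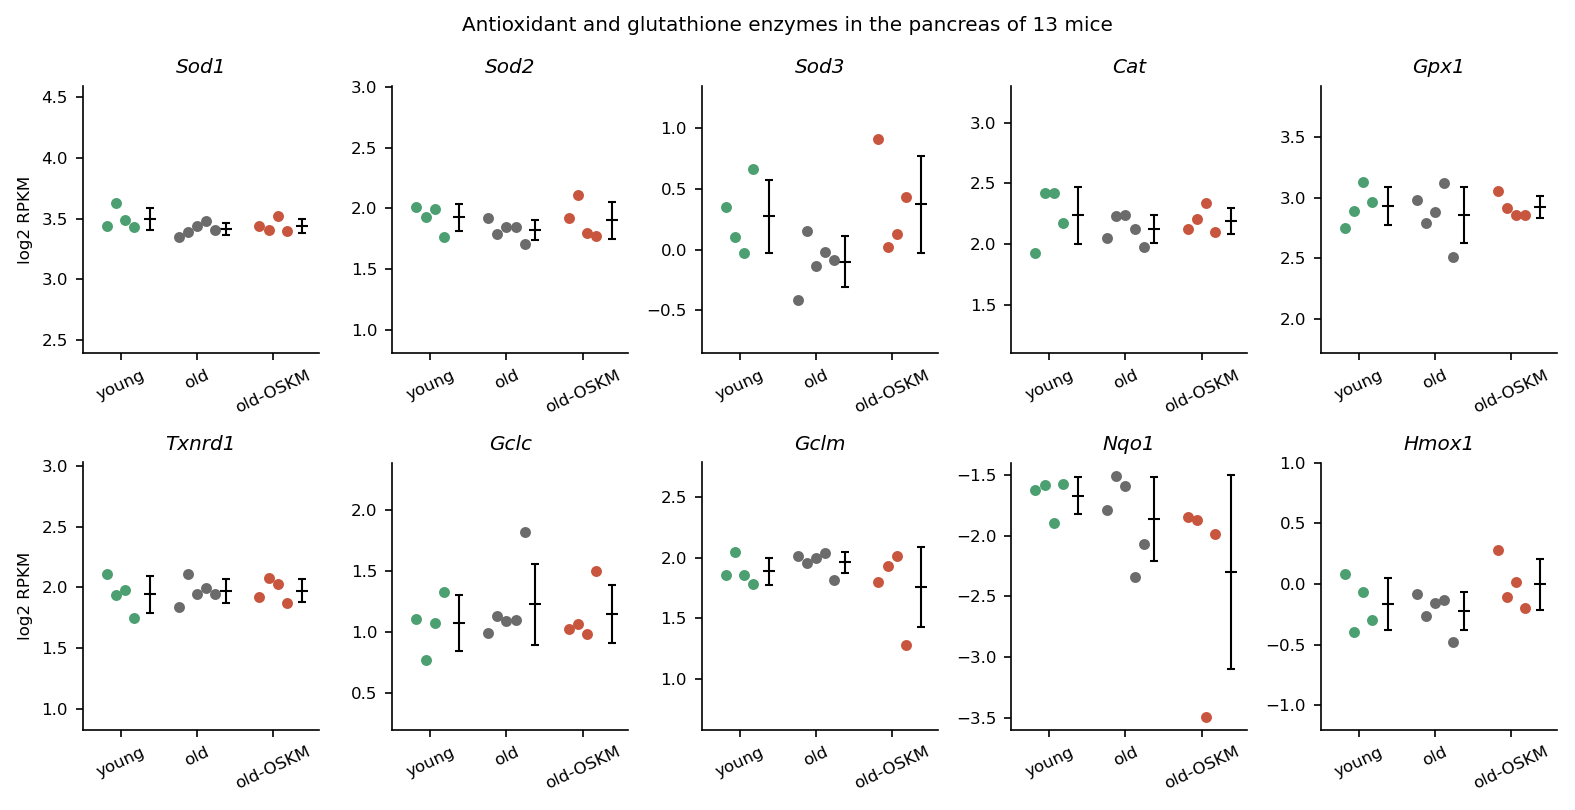
Log2 RPKM of each of the 10 genes, 1 panel per gene, in young (n = 4), old (n = 5) and old-OSKM (n = 4) mice, with 1 dot per mouse and a black bar for the mean ± SD. The 3 groups overlap in every panel, and the lone low dot of Nqo1 at −3.49 is old-OSKM mouse 3.

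The 5′ ends of these genes were searched for the core of the antioxidant response element, the DNA element through which Nrf2 acts, because the enzymes are usually described as a set under that factor. The core was spelled TGACNNNGC and sought on both strands of the RefSeq promoter windows (GRCm38.p6, the assembly also called mm10) that run from 250 bases before to 50 after a transcript's start. Of the 10 genes, 7 had a window and together they had 9. The core was present in 3 of the 9 windows, at 3 different genes, against 4071 of 32851 windows of all genes, or 12.4%. All 3 matches lay on the minus strand, with the genes on the plus strand, and are printed 5′ to 3′ along the minus strand with the core in capitals and 10 bases on each side.
Sod1, chr16:90220696-90220724: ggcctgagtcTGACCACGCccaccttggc
Gclm, chr3:122245413-122245441: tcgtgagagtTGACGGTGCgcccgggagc
Txnrd1, chr10:82859104-82859132: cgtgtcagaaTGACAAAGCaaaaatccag
Counted in bases from the transcript start along the gene, the core lay at −56 in Sod1, −134 in Gclm and −92 in Txnrd1, which has 3 windows and holds the core in 1. Sod2, Cat, Gpx1 and Nqo1 had no match, which says only that these letters are not in those 300 bases. Sod3, Gclc and Hmox1 had no window in the table.

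Sod1, Sod2 and Sod3 encode the 3 superoxide dismutases: a copper and zinc enzyme of the cytosol, a manganese enzyme of the mitochondrial matrix and a secreted copper and zinc enzyme that binds the extracellular matrix. Sod1 (Entrez 20655, chr16:90220762-90226333 in mm10) was at 3.44, 3.63, 3.49 and 3.43 log2 RPKM in the young mice. In the old mice it was at 3.35, 3.39, 3.44, 3.48 and 3.41, and in the old-OSKM mice at 3.44, 3.40, 3.52 and 3.40. Young mouse 2 was the highest of all and old mouse 1 the lowest, and the groups overlapped throughout. All 5 old mice were below the young mean, yet the log2 difference of old minus young was only −0.08 (95% interval −0.20 to 0.03) with a limma raw p of 0.129, adjusted 1 over all genes. Without young mouse 2 it was −0.04 (raw p 0.422). The old-OSKM mice differed from the old ones by 0.03 (−0.09 to 0.14). Both intervals lie well within a 1.5-fold change in either direction.

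Sod2 (20656, chr17:13007839-13018119) had group means of 1.93 ± 0.11 log2 RPKM in young mice, 1.82 ± 0.08 in old mice and 1.90 ± 0.15 in old-OSKM mice (SD). The old mice were again all below the young mean, by −0.10 on average (95% interval −0.28 to 0.07, limma raw p 0.217, adjusted 1). Without young mouse 4, the lowest young mouse at 1.77, the young and old values of Sod2 did not overlap. Of the summed RPKM of the 3 dismutases, Sod1 made up 69.2% ± 1.93 in young, 70.4% ± 0.971 in old and 68.1% ± 2.65 in old-OSKM mice, and Sod2 made up 23.3% ± 1.75, 23.4% ± 1.396 and 23.5% ± 2.46, with single mice from 21.5% to 27.1%. Differences in these shares were not tested. Sod3 made up the rest, 7.55% ± 1.85, 6.21% ± 0.835 and 8.34% ± 2.303.

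Sod3 (20657, chr5:52363804-52369738) was at 0.35, 0.11, −0.03 and 0.66 log2 RPKM in the young mice. In the old mice it was at −0.42, 0.16, −0.13, −0.02 and −0.08. The old-OSKM mice had 0.91, 0.02, 0.13 and 0.43. Old-OSKM mouse 1 was the highest of the 13 and young mouse 4 the next, while old-OSKM mice 2 and 3 lay below old mouse 2, so the old and old-OSKM groups overlapped. All 4 old-OSKM mice were nevertheless above the old mean. The log2 difference of old-OSKM minus old was 0.47 (95% interval 0.05 to 0.90, a fold of 1.39) with a limma raw p of 0.0327, adjusted 0.547. It was the only 1 of the 30 differences between groups, 10 genes in 3 comparisons, with a raw p under 0.05, and it did not pass the correction over all genes. The difference of old minus young was −0.37 (−0.80 to 0.05, limma raw p 0.0806, adjusted 0.996) with 5 of 5 old mice below the young mean. In old-OSKM minus young it was 0.10 (−0.35 to 0.55, limma raw p 0.636, adjusted 0.848). The first 2 of these comparisons share the 5 old mice, so a low value in those mice moves both, in opposite directions.

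Single mice decided whether Sod3 passed the raw threshold. Without old-OSKM mouse 1 the difference of old-OSKM minus old was 0.29 (limma raw p 0.116). Leaving out old-OSKM mouse 4 gave 0.45 (raw p 0.0679, adjusted 0.801). Without old mouse 1 it was 0.39 (raw p 0.0766) and without old mouse 3 it was 0.46 (raw p 0.0546). The direction was kept each time, but the call was not. Without old mouse 2, on the other hand, the old and old-OSKM values did not overlap. For old minus young, the raw p was 0.0376 without old-OSKM mouse 1 and 0.0442 without young mouse 3. Without young mouse 4, the highest of its group, that difference was −0.24 (raw p 0.245) in place of −0.37. The difference of old-OSKM minus young was −0.08 without old-OSKM mouse 1.

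Sod3 is a product of vessel walls, fibroblasts and macrophages in many tissues, so markers of such cells were set beside it. The summed RPKM of 9 fibroblast and smooth muscle markers was 32.2, 33.3, 29.4 and 56.5 in the young mice, 26.5, 27.5, 22.7, 28.4 and 26.2 in the old mice, and 43.6, 30.5, 27.8 and 76.1 in the old-OSKM mice. Dcn was the most abundant of these markers by mean log2 RPKM, and the lowest was Acta2, at −0.59 to 0.53 log2 RPKM. The summed RPKM of 10 macrophage markers was 17.7, 15.3, 16.6 and 27.1 in the young mice, 16.9, 16.4, 12.1, 21.0 and 16.0 in the old mice, and 49.5, 18.5, 20.2 and 41.0 in the old-OSKM mice, with Lyz2 the most abundant and Marco lowest, at −3.80 to −1.27 log2 RPKM. The 3 mice with the most Sod3, old-OSKM mouse 1, young mouse 4 and old-OSKM mouse 4, were also the 3 with the highest sum on both lists. Endothelial markers did not follow this order in full: the summed RPKM of 7 of them was 34.0 in old-OSKM mouse 4 and 26.5 in young mouse 4, but 17.3 in old-OSKM mouse 1, within the 14.2 to 17.7 of the other mice. The 3 mice had the highest sums of 6 adipocyte markers, at 12.5, 8.59 and 13.9 against 3.07 to 5.43 in the other mice, with Fabp4 the most abundant and Lep the lowest, at −4.29 to −1.33 log2 RPKM. Their summed RPKM of 10 immediate early and heat shock genes was also highest. It was 12.3, 12.4 and 15.2, against 8.49 to 10.9 in the other mice. The same mice had the most genes more than 1 log2 unit from the median over all mice. That they come first is therefore not particular to fibroblast, smooth muscle and macrophage markers.

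These marker lists were then compared gene by gene. Over all genes, 54.4% were higher in old minus young, 36.9% in old-OSKM minus old and 38.7% in old-OSKM minus young. In old-OSKM minus old, 10 of 10 macrophage markers were higher, 7 of them with a raw p under 0.05, and 8 of 9 fibroblast and smooth muscle markers were higher, 4 with a raw p under 0.05. The macrophage count was 4 without old-OSKM mouse 1 and 3 without old-OSKM mouse 4, and the fibroblast and smooth muscle count was 3 without either. Other mice moved them upward, and over all mice left out in turn they ranged from 3 to 9 and from 3 to 7. C1qc, a macrophage complement gene, was higher by 1.02 log2 units (limma raw p 0.00804), and Col1a1, a collagen gene, by 0.88 (raw p 0.00562). Col1a2, another collagen gene, at 0.89 (raw p 0.00877), and Plin1, an adipocyte gene, at 1.53 (raw p 0.00716), passed the rule as well, but not without old-OSKM mouse 1, at 0.81 (raw p 0.0267) and 1.00 (raw p 0.0134), or old-OSKM mouse 4, at 0.64 (raw p 0.0313) and 1.44 (raw p 0.022), nor without several other single mice. Plin1 was low, at a mean of −2.70 log2 RPKM and at −3.44 to −2.67 in the old mice. At such levels a small difference in RPKM gives a large log2 difference. C1qc and Col1a1 also passed by little. Without old-OSKM mouse 1 they were 0.71 (raw p 0.0244) and 0.73 (raw p 0.0214), and without old-OSKM mouse 4 they were 0.94 (raw p 0.0255) and 0.74 (raw p 0.0224). Leaving out old mouse 2 or 3 also took the raw p of both above 0.01, with differences of 1.05 and 0.91 for C1qc and 0.85 and 0.84 for Col1a1. With age, 9 of 9 fibroblast and smooth muscle markers were lower, 4 of them with a raw p under 0.05, among them Col3a1 at −1.04 (limma raw p 0.00494) and Col1a1 at −0.93 (raw p 0.00393). Without young mouse 4 these were −0.77 (raw p 0.0158) and −0.71 (raw p 0.0135). The limma raw p of Col3a1 was also above 0.01 without young mouse 2 or old mouse 3 or 4, at 0.0101 to 0.0132. Of the macrophage markers, 2 were higher and 8 lower with age, none with a raw p under 0.05, or 5 and 5 without young mouse 4 or old mouse 3. For old-OSKM minus young, where the difference of Sod3 was 0.10 (limma raw p 0.636), 4 fibroblast and smooth muscle markers were higher and 5 lower, with a median of 0.00, while 10 of 10 macrophage markers were higher, with a median of 0.71 and 3 at a raw p under 0.05. Single mice moved both: 1 fibroblast and smooth muscle marker was higher without old-OSKM mouse 4 and 9 without old-OSKM mouse 2 or 3, and the macrophage count of 3 was 1 without old-OSKM mouse 1 or 4 and 7 without old-OSKM mouse 2. Marco passed the rule of fold and raw p there, at 1.52 (limma raw p 0.0085), but without any 1 of 10 mice its raw p was above 0.01, as at 1.25 (raw p 0.029) without old-OSKM mouse 1. Of 7 endothelial markers, 7 were higher in old-OSKM than in old mice, none with a raw p under 0.05, with Plvap the most abundant and Vwf the lowest, and their median of 0.33 was 0.06 without old-OSKM mouse 4. All 6 adipocyte markers were higher as well, 4 of them with a raw p under 0.05, or 1 to 5 with each mouse left out in turn. The part that these cells play in the values of Sod3 was not tested, and in a whole tissue fewer cells of a type and less RNA per cell cannot be told apart.

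Other lists were uneven by sign in old-OSKM minus old as well. There 6 of 6 T cell markers (median 0.70), 7 of 8 B and plasma cell markers (median 0.48) and 9 of 10 immediate early and heat shock genes (median 0.29) were higher, and 8 of 8 islet markers were lower (median −0.51). Most of this rests on single mice. Without old-OSKM mouse 1, 5 of 6 T cell markers (median 0.18), 4 of 8 B and plasma cell markers (median 0.03) and 2 of 8 islet markers were higher, and without old-OSKM mouse 4 the median was 0.11 for the immediate early and heat shock genes and −1.01 for the islet markers, 5 of which then had a raw p under 0.05. With all mice, 3 immediate early and heat shock genes had a raw p under 0.05, Junb, Atf3 and Dnajb1, named after their values were seen, 2 of them higher, or none without old-OSKM mouse 1, and Dnajb1 lower. The rule of fold and raw p was passed by Jchain, a plasma cell gene, in old minus young at 2.35 (limma raw p 0.00644) and in old-OSKM minus young at 3.04 (raw p 0.00165). The former had a limma raw p of 0.0136 to 0.0207 without any 1 of young mice 2 and 4 and old mice 1, 2 and 3. The B cell genes Cd79b and Ms4a1 and the T cell gene Cd3g passed it in old-OSKM minus young at 1.91, 1.77 and 1.70, but not without old-OSKM mouse 1, at 1.44, 1.35 and 1.09. Each also failed it without some other single mice. In the young mice their levels were low: Cd79b was at −3.30 to −1.23, Ms4a1 at −3.79 to −2.00 and Cd3g at −3.15 to −3.08 log2 RPKM. Hepatocyte markers were uneven too, with 6 of 7 lower in old-OSKM minus old (median −0.49). In old minus young and old-OSKM minus young, 7 of 7 were lower (medians −0.78 and −1.03), and the young group includes young mouse 3. No gene of any marker list had an adjusted p under 0.05 in limma.

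**Figure D2:**
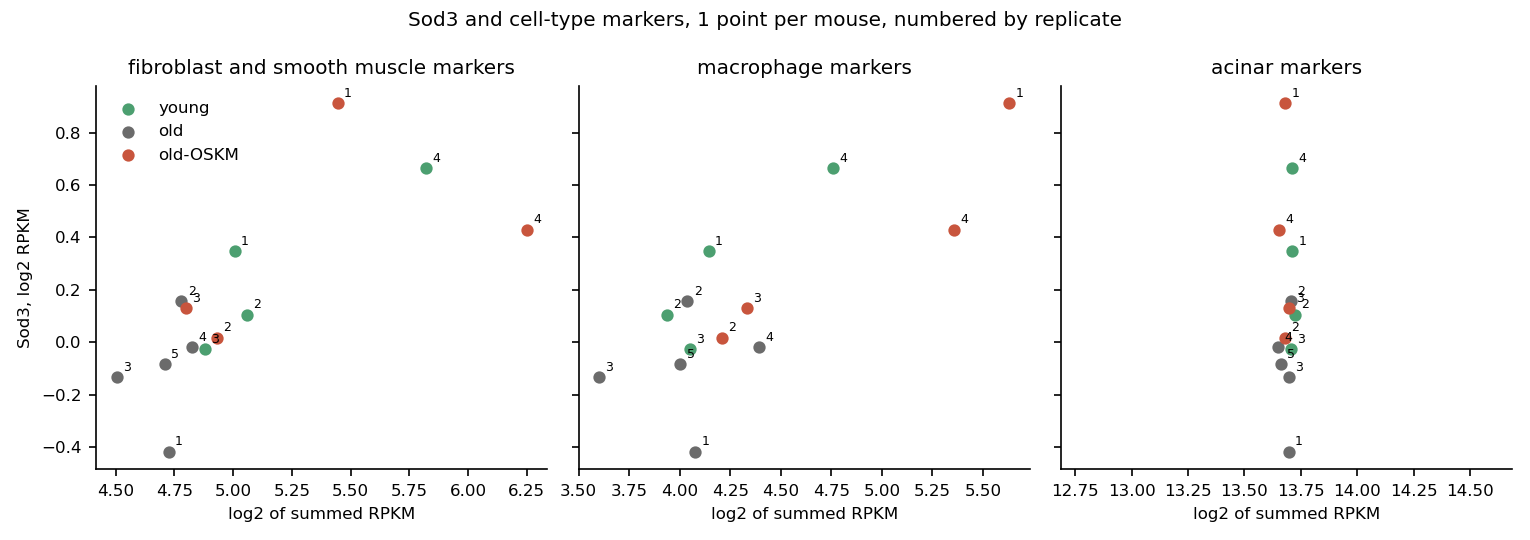
Log2 RPKM of Sod3 (vertical) against the log2 of the summed RPKM of fibroblast and smooth muscle, macrophage and acinar markers (horizontal, 1 panel each), with 1 point per mouse coloured by group and numbered by mouse. Old-OSKM mice 1 and 4 and young mouse 4 lie apart at the upper right of the first 2 panels, while the acinar sum spans a narrow range, 13.65 to 13.73.

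Catalase, encoded by Cat (12359, chr2:103453904-103485153), breaks down hydrogen peroxide in peroxisomes, and Gpx1 (14775, chr9:108339080-108340342), a selenoprotein of the cytosol and mitochondria, reduces it with glutathione. Cat had group means of 2.24 ± 0.24 log2 RPKM in young mice, 2.13 ± 0.11 in old mice and 2.19 ± 0.11 in old-OSKM mice, and the widest group was the young one, at 1.93, 2.42, 2.42 and 2.18. The difference of old minus young was −0.11 (95% interval −0.34 to 0.12, limma raw p 0.3, adjusted 1). It was −0.05 without young mouse 3, the mouse with the highest sum of liver markers, and also −0.05 without young mouse 2. Without old mouse 4 it was −0.11. Without young mouse 1, the lowest of that group, it was −0.22 with a raw p of 0.033, adjusted 0.938.

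Gpx1 was at 2.93 ± 0.16 log2 RPKM in young mice, 2.86 ± 0.23 in old mice and 2.92 ± 0.09 in old-OSKM mice. Young mouse 3 was highest at 3.127, just above old mouse 4 at 3.125, and old mouse 5 was lowest at 2.51. With all mice, no difference between groups exceeded 0.08 in size, and old minus young was −0.07 (95% interval −0.32 to 0.18). It was −0.01 without young mouse 3 and −0.14 without old mouse 4. The groups overlapped, and the differences with all mice were smaller than the spread within any group.

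Txnrd1 (50493, chr10:82833951-82897724) encodes the cytosolic selenoprotein that keeps thioredoxin reduced with NADPH. Its means were 1.94 ± 0.15 log2 RPKM in young mice, 1.97 ± 0.10 in old mice and 1.97 ± 0.09 in old-OSKM mice. The 3 differences were 0.03, 0.00 and 0.03, and the widest of their intervals ran from −0.15 to 0.21. The genes Eid3 and Gm38560 overlap it, and whether reads were counted by strand is not stated, so what share of its signal belongs to them cannot be told.

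Glutamate-cysteine ligase makes the first and rate-limiting step of glutathione synthesis, with Gclc as the catalytic and Gclm as the modifier subunit. Gclc (14629, chr9:77754535-77794489) was at 1.11, 0.77, 1.07 and 1.33 log2 RPKM in the young mice, 0.99, 1.13, 1.09, 1.099 and 1.82 in the old mice, and 1.02, 1.07, 0.98 and 1.498 in the old-OSKM mice. Old mouse 5 and old-OSKM mouse 4 stood above the rest of their groups, and the groups overlapped. The difference of old minus young was 0.15 (95% interval −0.24 to 0.55, limma raw p 0.403, adjusted 1) and was 0.01 without old mouse 5, 0.05 without young mouse 2 and 0.24 without young mouse 4. Young mice 3 and 4 and old mouse 5 come from a later run of sample identifiers, and with that run as a covariate the difference was 0.30 (raw p 0.0557, adjusted 0.958). Among mice of the early run alone it was 0.14 (raw p 0.393). In old-OSKM minus old it was −0.08 (−0.47 to 0.31). Without old-OSKM mouse 4 it was −0.20, and without old mouse 5 it was 0.07, so its sign rests on single mice. The difference of old-OSKM minus young was 0.07 with all mice, 0.31 with the covariate (raw p 0.0738) and 0.20 in the early run (raw p 0.218).

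Gclm (14630, chr3:122245487-122267215) was at 1.86, 2.05, 1.86 and 1.78 log2 RPKM in the young mice, 2.01, 1.96, 2.00, 2.04 and 1.82 in the old mice, and 1.80, 1.93, 2.02 and 1.28 in the old-OSKM mice. Old-OSKM mouse 4 was by far the lowest of the 13. The difference of old-OSKM minus old was −0.21 (95% interval −0.49 to 0.08, limma raw p 0.137, adjusted 0.608) and −0.05 without that mouse (raw p 0.544). Leaving out old-OSKM mouse 3 instead gave −0.29 with a raw p of 0.0473, adjusted 0.296. Most of the difference thus came from the mouse that also stood apart over all genes. Gm46822 and Gm6061 overlap Gclm, with the same limit on strand as for Txnrd1.

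The 2 subunits did not move together. The log2 ratio of Gclc to Gclm within a mouse was −1.28 to −0.45 in 11 mice, but 0.00 in old mouse 5 and 0.22 in old-OSKM mouse 4. In these 2 mice the catalytic subunit was thus as abundant as the modifier subunit or more so. After each profile was centred and scaled over the 13 mice, the root mean square difference between Gclc and Gclm was 1.719, the largest of the 45 pairs of the 10 genes. Gclc was almost as unlike Sod2, at 1.718, Gpx1, at 1.707, and Cat, at 1.691, so this distance is not particular to the 2 subunits. The most alike pair was Sod1 and Cat at 0.786, followed by Sod2 and Hmox1 at 0.980 and by Gpx1 and Hmox1 at 0.984.

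Nqo1 and Hmox1 are the genes most often used to read Nrf2 activity: Nqo1 reduces quinones with NADPH, and Hmox1 opens heme to release iron, carbon monoxide and biliverdin. Nqo1 (18104, chr8:107388225-107403205) was at −1.63, −1.58, −1.90 and −1.57 log2 RPKM in the young mice. In the old mice it was at −1.79, −1.51, −1.59, −2.34 and −2.07, and in the old-OSKM mice at −1.85, −1.87, −3.49 and −1.99. Old-OSKM mouse 3 was far below every other mouse, and young mouse 3 lay within the old-OSKM values, so the young and old-OSKM values overlapped. The difference of old-OSKM minus young was −0.63 (95% interval −1.35 to 0.09, limma raw p 0.0811, adjusted 0.706) with 4 of 4 old-OSKM mice below the young mean. Without old-OSKM mouse 3 it was −0.23 (raw p 0.226), without old-OSKM mouse 1 it was −0.78 (raw p 0.0495, adjusted 0.817), and without young mouse 3 the groups did not overlap. In old-OSKM minus old it was −0.44 with all mice and −0.04 without old-OSKM mouse 3. At a mean of 0.261 RPKM, Nqo1 was the gene for which the data say least.

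Hmox1 (15368, chr8:75093618-75100593) was at 0.08, −0.39, −0.07 and −0.29 log2 RPKM in the young mice, −0.08, −0.26, −0.16, −0.13 and −0.48 in the old mice, and 0.28, −0.11, 0.01 and −0.20 in the old-OSKM mice. The highest value was again that of old-OSKM mouse 1, and the groups overlapped. All 4 old-OSKM mice were above the old mean, by 0.22 on average (95% interval −0.05 to 0.49, limma raw p 0.103, adjusted 0.608). Without old-OSKM mouse 1 the difference was 0.13 (raw p 0.321), and without old-OSKM mouse 4 it was 0.28 (raw p 0.0555, adjusted 0.795). Hmox1 is abundant in macrophages that take up red cells, and the part of the higher macrophage markers in its value was not tested.

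Counted as a set, the 10 genes gave few calls. Old minus young asks what differs with age, and here 0 of 10 had an adjusted p under 0.05 in limma, where 0.0813% of all genes did. By fold change over 1.5 with a raw p under 0.01, 0 of 10 were called, against 0.886% of all genes. A raw p under 0.05 was reached by 0 of 10, against 5.52% of all genes, and the young and old values were without overlap in 0 of 10, against 2.71%. Of the 10, 3 were higher and 7 lower in old mice, with a median log2 difference of −0.08, where the median over all genes was 0.00 and 54.4% were higher.

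For old-OSKM minus old, the question is what differs after a transient activation of the factors. An adjusted p under 0.05 was reached by 0 of 10, against 0.00428% of all genes, which is 1 gene. By fold change and raw p, 0 of 10 were called, against 0.753%. A raw p under 0.05 was reached by 1 of 10, Sod3, against 8.07% of all genes, and 0 of 10 were without overlap, against 1.73%. Here 7 were higher and 3 lower, with a median of 0.05, against a median of −0.04 and 36.9% higher over all genes. A single gene of 10 is near the share in all genes, so the count says nothing particular about these enzymes.

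Old-OSKM minus young asks how far the treated mice were from young ones. By adjusted p, 0 of 10 passed, against 0.0428% of all genes. By fold change and raw p it was again 0 of 10, against 0.625%. A raw p under 0.05 was reached by 0 of 10, against 5.07%, and values without overlap were found for 0 of 10, against 1.9%. The signs were 4 higher and 6 lower with a median of −0.02, against −0.04 and 38.7% higher over all genes.

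The intervals give more than the calls, since they bound what could have been missed. With age, the 95% interval lay within a 1.5-fold change for 8 of 10 genes, all but Sod3 and Nqo1, and the farthest bound was 1.83-fold. For old-OSKM minus old it was also 8 of 10, with the same exceptions and a farthest bound of 2.18-fold. For old-OSKM minus young it was 9 of 10, all but Nqo1, whose bound was 2.55-fold. Without old-OSKM mouse 3 it was 7 of 10, all but Sod3, Gclc and Nqo1, and the farthest bound of any gene was 1.59-fold. These counts rest on single mice. Without old-OSKM mouse 4 they were 7 for old-OSKM minus old, with Gclc now beyond, and 8 for old-OSKM minus young, with Sod3 now beyond. With each mouse left out in turn they ranged from 7 to 9 in all comparisons, and Sod3, Gclc and Nqo1 were the only genes ever beyond. A p that misses the threshold does not show that levels were equal, but for the other 7 genes a change beyond 1.5-fold lay outside the interval in each of these fits.

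**Figure D3:**
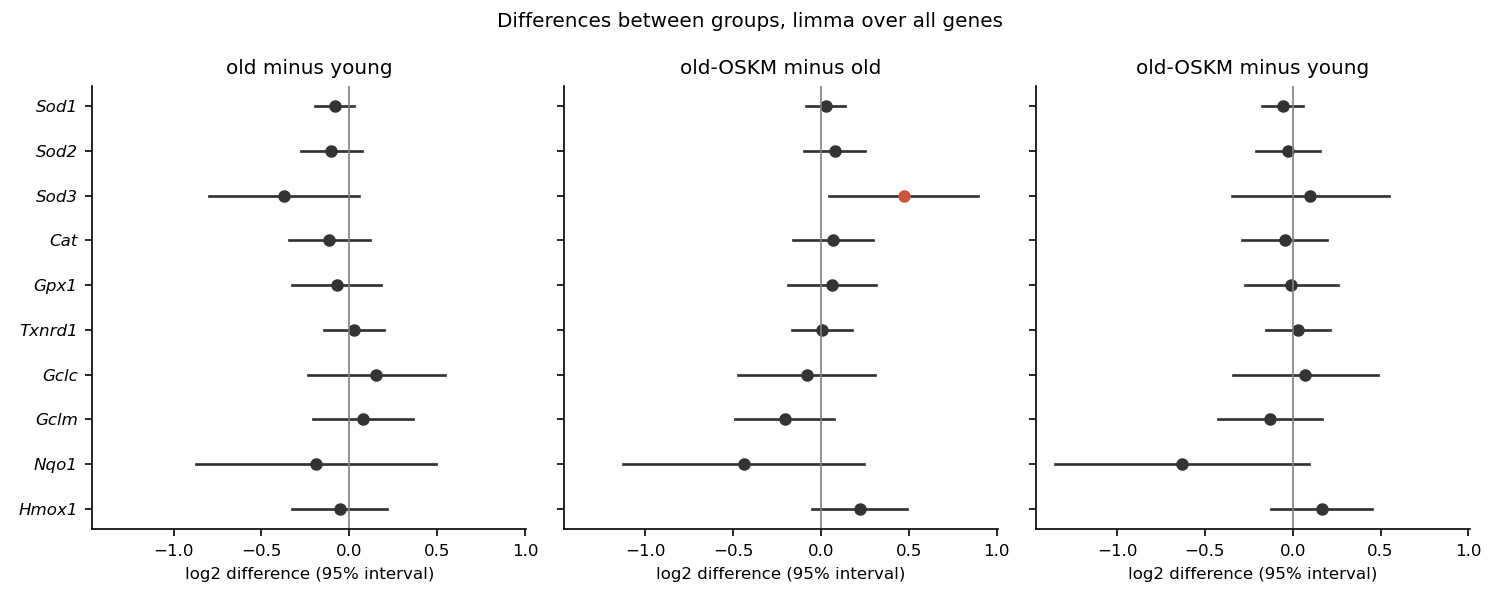
Log2 difference between group means for each of the 10 genes, 1 panel per comparison, with the 95% interval of the limma fit. All intervals but that of Sod3 in old-OSKM minus old, drawn in colour, include 0, and those of Nqo1 are the widest.

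Ratios within a mouse are not moved by a factor that a whole library shares. The ratios of Gclc to Gclm, Sod1 to Sod2, Cat to Gpx1 and Txnrd1 to Nqo1 were compared between groups with two-sided exact permutation tests, 12 in all, and none had an adjusted p under 0.05. The smallest p that the exact test can give is 0.0079 for 4 against 5 mice and 0.029 for 4 against 4, so a single ratio at that limit could not have passed after adjustment over 12 tests, and the adjusted result says little. The lowest was that of Txnrd1 to Nqo1 in old-OSKM minus young, a log2 difference of 0.66 with an exact p of 0.0857, adjusted 0.904. Without old-OSKM mouse 3 this difference was 0.25, so it came mainly from the low Nqo1 value of that mouse. The ratio of Sod1 to Sod2 was 1.57 ± 0.13 in young, 1.59 ± 0.10 in old and 1.54 ± 0.18 in old-OSKM mice.

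**Figure D4:**
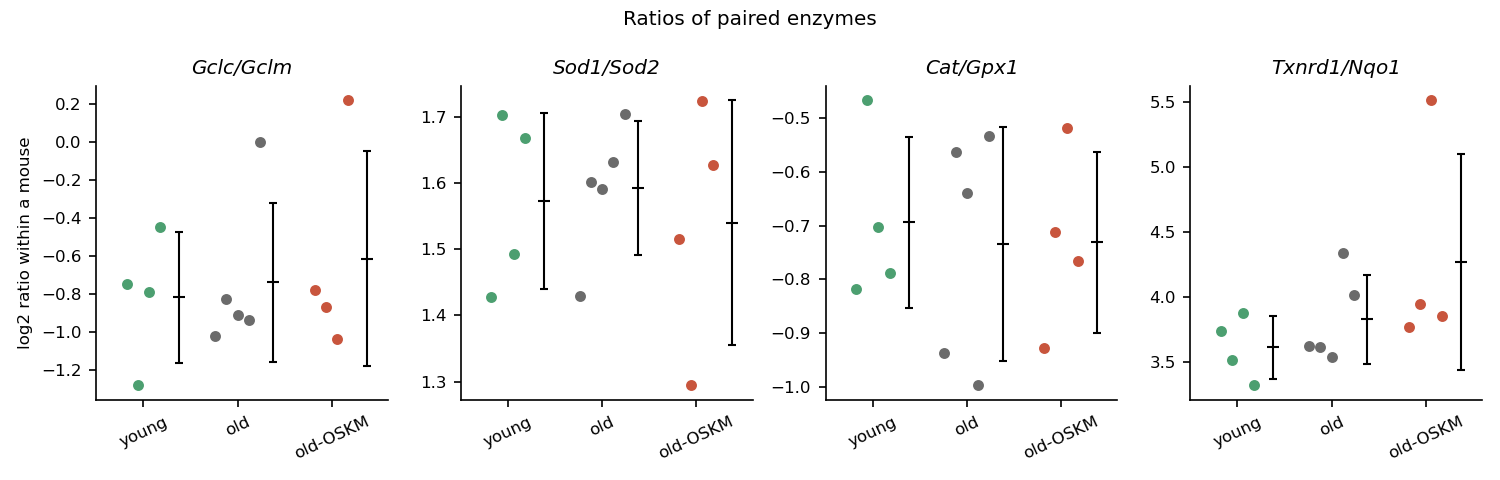
Log2 ratio of 4 pairs of genes within each mouse, 1 panel per pair, by group, with 1 dot per mouse and the mean ± SD. The Gclc to Gclm panel has 1 high old mouse at 0.00 and 1 high old-OSKM mouse at 0.22, and the Txnrd1 to Nqo1 panel has 1 high old-OSKM mouse at 5.52.

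Around the 10 genes, 12 lists of redox genes held another 145 genes, none of which had an adjusted p under 0.05 in limma in any comparison. A raw p under 0.05 was reached by 2 higher and 10 lower genes in old minus young, or 8.28% of the 145 against 5.52% of all genes. In old-OSKM minus old it was 13 higher and 5 lower, or 12.4% against 8.07%. In old-OSKM minus young it was 4 higher and 5 lower, or 6.21% against 5.07%. Over all genes the counts were 702 higher and 588 lower, 931 and 954, and 679 and 505. Whether the 145 differ from all genes in this was not tested, and the first 2 comparisons share the old mice. For old-OSKM minus old the counts were 5 higher and 2 lower without old-OSKM mouse 1, and 14 higher and 3 lower without old-OSKM mouse 4. Over all mice left out in turn they ranged from 5 to 15 higher and from 2 to 10 lower, both highest without old-OSKM mouse 2. In old minus young they ranged from 1 to 6 higher and from 6 to 14 lower, highest without old-OSKM mouse 4, and in old-OSKM minus young from 3 to 8 higher and from 3 to 6 lower. Counted without a threshold, the 145 showed no such split, with 73 higher and 72 lower (median 0.00) in old minus young, 64 and 81 (median −0.02) in old-OSKM minus old, and 62 and 82 (median −0.02) in old-OSKM minus young. Over all genes, 54.4%, 36.9% and 38.7% were higher in these comparisons, and the counts of each list stand against these shares. The lists also hold genes of very low level, such as Gsta2 at −3.03 to −2.86 and Nox3 at −3.82 to −3.62 log2 RPKM, whose sign says little.

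Among the redox lists, the one with the most genes at a raw p under 0.05 was, in old minus young and in old-OSKM minus old, that of 19 other Nrf2 target genes. With age, 7 were higher and 12 lower, with a median of −0.12, and 5 had a raw p under 0.05, all of them lower, or 2 without old mouse 3. In old-OSKM minus old, 14 were higher and 5 lower, with a median of 0.13, and 6 had a raw p under 0.05, all of them higher. That count was 3 without old-OSKM mouse 1 and 4 without old-OSKM mouse 4. In old-OSKM minus young, the median was 0.03, with 2 higher and 2 lower at that threshold. Osgin1, Abcc3 and Ugt1a6a, named after their values were seen, were below a raw p of 0.05 in both of the first comparisons, which share the old mice. Ugt1a6a differed by −1.05 and 0.97, at a mean of −2.12 log2 RPKM, and in old-OSKM minus old by 0.63 (raw p 0.0757) without old-OSKM mouse 1, 0.83 (raw p 0.0664) without old-OSKM mouse 4 and 0.80 (raw p 0.0531) without old mouse 5. Osgin1 and Abcc3 were within 0.27 of 0 and passed the raw threshold of 0.05 in both comparisons only while each of 4 to 9 single mice was kept.

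Akr1b8 and Aox1, a reductase and an oxidase of aldehydes, were the called genes of that list. Akr1b8 was at −1.18, −1.42, −1.37 and −0.91 log2 RPKM in young mice, −1.06, −1.34, −1.13, −0.90 and −0.92 in old mice, and −0.17, −0.72, −0.71 and −0.59 in old-OSKM mice. The old-OSKM mice were above all 9 others, without overlap. The difference of old-OSKM minus young was 0.67 (limma raw p 0.000775, adjusted 0.398), and that of old-OSKM minus old was 0.52 (raw p 0.00331, adjusted 0.547). Without old-OSKM mouse 1 the former was 0.55 (raw p 0.00188), a fold under 1.5. Aox1 differed by 0.75 in old-OSKM minus young (limma raw p 0.00771, adjusted 0.706) and by 0.61 without old-OSKM mouse 4 (raw p 0.0275). Its raw p was also above 0.01 without old-OSKM mouse 1 or 2, young mouse 1 or 2, or old mouse 3, at 0.0109 to 0.0265. Neither passed the correction over all genes. The most abundant genes of the list were Taldo1, at a mean of 2.78 log2 RPKM, and Cbr1, at 2.13.

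Among enzymes that act on superoxide and peroxide, the list of the 3 dismutases and their copper chaperone had all 4 genes lower in old than in young mice and all 4 higher in old-OSKM than in old mice, with 1 of 4 higher in old-OSKM than in young mice. Of 9 peroxidases and catalase, 8 were lower in old minus young and 6 were higher in old-OSKM minus old. Gpx2, a glutathione peroxidase of epithelia, was the called gene here. It was at −0.90, −0.99, −1.16 and −0.97 log2 RPKM in young mice, −1.93, −1.15, −1.07, −1.04 and −1.47 in old mice, and −0.22, −0.96, −0.96 and −0.72 in old-OSKM mice, where old and old-OSKM values did not overlap. The difference of old-OSKM minus old was 0.62 (limma raw p 0.00885, adjusted 0.547) and 0.46 without old-OSKM mouse 1 (raw p 0.0314). That call was marginal: the raw p was above 0.01 without any 1 of 9 mice, old-OSKM mice 1 and 4, all young mice and old mice 1, 2 and 5, with differences of 0.46 to 0.67. Gpx4, which reduces lipid peroxides, was the most abundant of this list at 3.18 log2 RPKM, above Gpx1 and Cat. Of 7 peroxiredoxins and sulfiredoxin, 2 were higher and 5 lower, 4 higher and 3 lower, and 3 higher and 4 lower in the 3 comparisons, none with a raw p under 0.05. Prdx4, which uses the peroxide made by disulfide formation in the endoplasmic reticulum, was the most abundant of them at 4.76 log2 RPKM, above Sod1.

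Of 22 genes of glutathione synthesis, recycling and breakdown, 11 were higher in old minus young, 7 in old-OSKM minus old and 9 in old-OSKM minus young, and 3, 0 and 2 of them had a raw p under 0.05. Slc7a11, the cystine transporter that supplies glutathione synthesis, was among these in both comparisons with the young mice, at −0.56 in old minus young (limma raw p 0.00985, adjusted 0.614) and −0.49 in old-OSKM minus young (raw p 0.0266, but 0.0715 to 0.0818 without young mouse 1 or old-OSKM mouse 3 or 4), and was named after its values were seen. Without young mouse 1 the latter difference was −0.31. Ggt1, at 4.10 log2 RPKM, and Slc3a2, at 3.54, were the most abundant of the list. Of 24 glutathione S-transferases, 17 were higher in old minus young, 6 in old-OSKM minus old and 8 in old-OSKM minus young, with 2, 5 and 0 at a raw p under 0.05. Gstp1 at 5.07 and Gstp2 at 4.33 led this list, but they are close copies, and how reads were divided between them is uncertain. Of 8 genes of the thioredoxin system, 5, 3 and 3 were higher, none with a raw p under 0.05, with Txnip at 3.66 and Txn1 at 2.86 the most abundant.

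The regulators differed little. Of 13 genes of Nrf2 and its regulators, 8 were higher in each comparison, with medians of 0.06, 0.01 and 0.05. The only 1 with a raw p under 0.05 was Keap1, named after its values were seen, at 0.15 in old-OSKM minus old (limma raw p 0.0192, adjusted 0.547), and at 0.13 (raw p 0.0603) without old-OSKM mouse 1. Sqstm1 at 3.40 and Nfe2l1 at 2.69 log2 RPKM were the most abundant. Of 12 genes of heme and iron handling, 2 were higher in old minus young, 7 in old-OSKM minus old and 6 in old-OSKM minus young. Fth1, the ferritin heavy chain at 5.59 log2 RPKM, had small but even differences, −0.13 in old minus young (limma raw p 0.036, adjusted 0.843) and 0.16 in old-OSKM minus old (raw p 0.0139, adjusted 0.547), and its old values overlapped with neither other group. The former had a raw p of 0.0653 to 0.0823 without old mouse 2, 4 or 5 or young mouse 3 or 4, and the latter was 0.10 (raw p 0.0146) without old-OSKM mouse 4. Ftl1, the light chain, was at 5.76.

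Of 16 genes of superoxide-producing oxidases, 14 were higher in old minus young, 8 in old-OSKM minus old and 12 in old-OSKM minus young, the last with a median of 0.43. A raw p under 0.05 was reached by 0 in old minus young, and by 2 higher and 1 lower in each comparison of the old-OSKM mice. The lower gene was Nox1 both times, named after its values were seen, at −2.84, −3.34, −2.31 and −4.16 log2 RPKM in the old-OSKM mice. Cyba, a membrane subunit of the oxidases of phagocytes and other cells, was the most abundant at 1.20 log2 RPKM, and differed by 0.39 in old-OSKM minus old (limma raw p 0.046, adjusted 0.547) and by 0.51 in old-OSKM minus young (raw p 0.0175, adjusted 0.706). Old-OSKM mouse 1 was far the highest, at 2.068 against 1.230 to 1.402 in the rest of its group, and without it these differences were 0.20 (raw p 0.159) and 0.32 (raw p 0.0429). The former also had a raw p of 0.0537 to 0.105 without any 1 of old-OSKM mouse 3, young mice 1, 2 and 3 and old mice 3, 4 and 5. Xdh was next at 0.64. Several of these genes are typical of phagocytes, and the part of the macrophage markers in them was not tested. Of 9 genes of selenoprotein synthesis, 4, 1 and 2 were higher, none with a raw p under 0.05, led by Selenop at 5.88 and Sephs2 at 3.33. Of 11 peroxisome genes, 5, 3 and 0 were higher, with 1, 0 and 0 at a raw p under 0.05, led by Scp2 at 2.21 and Abcd3 at 2.14.

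**Figure D5:**
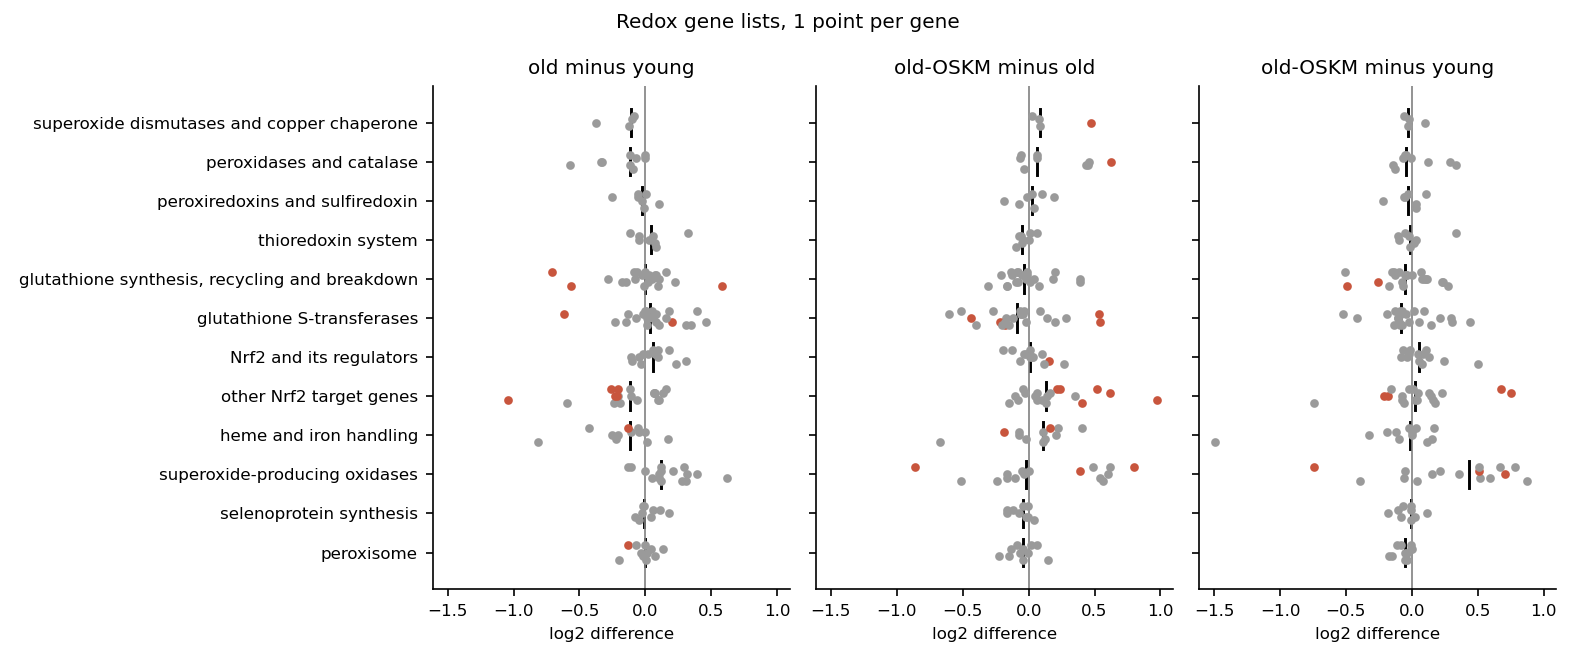
Log2 difference of each gene in 12 lists of redox genes, 1 panel per comparison, with 1 point per gene, coloured where the limma raw p was under 0.05, and a black tick for the median of the list. The other Nrf2 target genes have a median of −0.12 in old minus young and 0.13 in old-OSKM minus old, and the lists' points lie on both sides of 0 in most cases.

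The genes whose profiles over the 13 mice were most like those of the 10 were sought among the genes with a mean log2 RPKM over 0, by the root mean square difference of centred and scaled values. For Sod3 they were Cd93 at 0.437, Samd9l at 0.449 and Ptgfrn at 0.469. Gclm had the closest neighbours, Aldh7a1 at 0.229, Uchl3 at 0.246 and Mrps24 at 0.250, and its profile is dominated by the low value of old-OSKM mouse 4. Nqo1 was closest to Pym1 at 0.307, then Uqcc3 at 0.579 and Rmnd1 at 0.583, and its profile is dominated by old-OSKM mouse 3. Gclc was nearest to Golga7 at 0.429, Eif5b at 0.481 and Nkapd1 at 0.513. The other 6 genes had no neighbour closer than 0.474. Sod1 had Zfp433 at 0.544, Fut8 at 0.579 and Vamp3 at 0.586, and Sod2 had Eif5a at 0.474, Cluh at 0.537 and Sergef at 0.558. Cat had Fut8 at 0.563, Gpam at 0.599 and Usf1 at 0.616, so Fut8 was shared with Sod1. Gpx1 had Sema4b at 0.611, Procr at 0.672 and Egln2 at 0.722. Hmox1 had Cndp2 at 0.520, Atp6ap2 at 0.572 and Map3k1 at 0.592, and Txnrd1 had Hif1an at 0.503, Zhx3 at 0.543 and Mcoln1 at 0.592.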

How the data were processed

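RNA-seq of 13 mouse pancreata (4 young, 5 old, 4 old-OSKM) was analysed. The deposited values are log2 RPKM: the authors aligned paired-end reads to mm10 with STAR 2.3.0e, estimated RPKM per isoform with Casper, left out reads that map to many places, summed isoforms per Entrez gene and quantile normalized the log2 values. The methods also describe a correction by total reads. The deposited values show no sign of it, as the sorted values of the mice differ by at most 0.0116. Whether these values carry it is not stated. The total reads of each library are not in the table. The 23366 genes were fitted with limma 3.58.1 (lmFit and eBayes, R 4.3.3), all groups in 1 fit, two-sided, with no filter and no pseudocount, and p was adjusted by Benjamini-Hochberg over all genes. Ratios were compared with exact permutation tests in R. Promoters were searched with Python 3.11.15, and figures drawn with matplotlib 3.10.9. The 10 members and the lists were chosen with earlier results of these data known. From each list were named, per comparison, up to 3 genes of lowest raw p out of those past 1.5-fold at a raw p below 0.01, and up to 2 more with the highest mean. The text leaves out some abundant genes of marker lists. For each member, the 3 most alike genes were named. The alternatives were repeated scaling, median centring, pseudocounts of 1 and 0.1, a filter on mean log2 RPKM over 0, a fit of 2 groups, eBayes with trend and robust, the run of sample identifiers (an early and a late block of numbers) as a covariate or the early run alone, and leaving out each mouse.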

Additional observations from a re-analysis of the deposited data

Results flagged for a closer look

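In each group, the gap between the highest or lowest mouse and its nearest neighbour was set against the whole range of the group for each of the 10 genes, and 4 of 30 groups had a mouse far from the others. Chance alone gives about 1 in 20 groups that are independent, but the 30 groups share the same mice. The share flagged over all genes is not given, so whether 4 of 30 is unusual was not tested. Gclc was at 1.82 log2 RPKM in old mouse 5, with the next mouse at 1.13, and at 1.498 in old-OSKM mouse 4, with the next at 1.07. Nqo1 was at −1.90 in young mouse 3, with the next at −1.63, a narrow group in which a small gap counts. Nqo1 was at −3.49 in old-OSKM mouse 3, with the next at −1.99. Old-OSKM mouse 4 also stood apart over all genes, whereas old-OSKM mouse 3 did not, with 10 genes more than 1 log2 unit from the median. The causes were not tested.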

How the results depend on the processing

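No adjusted p of the 10 genes was under 0.05 in any of 654 alternative values of the 30 differences, and the lowest was 0.238. Of these values, 214 equal the difference of all mice by construction, as the alternative changes only the p or leaves out a gene or a mouse that does not enter the difference. Of the 440 that could differ, 399 kept the direction. The other 41 fell in 14 differences, none larger than 0.13 in size with all mice. The cause was not tested for the changes below, except that fewer genes or mice enter where a filter or a mouse is named.

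Over all genes, the calls by fold change and raw p, given for age first, then for old-OSKM against old and against young mice, numbered 16, 2 and 8 with a pseudocount of 1, 116, 77 and 76 with a pseudocount of 0.1, and 44, 35 and 19 among genes with a mean over 0. Calls by adjusted p in old-OSKM minus old were 0 with either pseudocount, with the filter, with the identifier run as covariate and in the early run alone. In old-OSKM minus young they were 5 with either pseudocount and with the filter, 6 with 2 groups in the fit and 4 with the covariate. In old minus young they were 11 with the filter, 11 with the covariate and 7 in the early run. Of the 10 genes, 1 (Sod3) had a raw p under 0.05 in old minus young with 2 groups in the fit. In the early run, 1 was without overlap in old minus young (Sod2) and 1 in old-OSKM minus young (Nqo1). That run holds only 2 young mice, so values without overlap arise more easily there. The share over all genes in that run is not given, so these counts say nothing particular about the 10 genes.

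With the covariate, signs turned for Txnrd1 in all 3 comparisons (−0.0035, −0.016 and −0.019 in the same order) and for Gclc in old-OSKM minus old (0.013). In the early run they turned for Txnrd1 (−0.048, −0.001 and −0.049), for Gpx1 (0.13, −0.023 and 0.10), for Gclc in old-OSKM minus old (0.066) and for Cat in old-OSKM minus young (0.016). With a pseudocount of 1, the ratio of Cat to Gpx1 in old-OSKM minus old was −0.0003.

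When each mouse was left out in turn, calls by adjusted p ranged from 5 to 29 in old minus young, from 0 to 4 in old-OSKM minus old and from 3 to 10 in old-OSKM minus young. Calls by fold and raw p ranged from 94 to 338 in old-OSKM minus old and from 121 to 253 in old-OSKM minus young. Of the 10 genes, those with a raw p under 0.05 ranged from 0 to 1, 0 to 2 and 0 to 1 in the 3 comparisons, and those without overlap from 0 to 1 in each. In old minus young, Gpx1 ranged from −0.14 to 0.014, Hmox1 from −0.13 to 0.028 and Txnrd1 from −0.039 to 0.082. In old-OSKM minus old, Sod1 ranged from −0.0007 to 0.043, Gpx1 from −0.023 to 0.13, Gclc from −0.20 to 0.066 and Txnrd1 from −0.030 to 0.0395. In old-OSKM minus young, Sod2 ranged from −0.0945 to 0.018, Sod3 from −0.0805 to 0.23, Cat from −0.15 to 0.0154, Gpx1 from −0.0705 to 0.055, Gclc from −0.046 to 0.16, Gclm from −0.22 to 0.0305 and Txnrd1 from −0.035 to 0.086. The ratio of Gclc to Gclm ranged from −0.11 to 0.20, −0.15 to 0.31 and −0.076 to 0.34 in the 3 comparisons, that of Sod1 to Sod2 from −0.029 to 0.062, −0.11 to 0.030 and −0.094 to 0.049, and that of Cat to Gpx1 from −0.0905 to 0.036, −0.068 to 0.069 and −0.11 to 0.039.

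No paired analysis was possible because the labels tie no mouse of a group to a mouse of another. Without counts, the error of low values such as those of Nqo1 cannot be split into counting error and spread between mice.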
